A study of Mus musculus with 4 samples.

Results

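The epidermal growth factor (EGF) receptor family and its ligands were followed through 10 genes in primary mouse pancreatic acinar cells, the enzyme-secreting cells of the exocrine pancreas. The genes were chosen by symbol: the receptors Egfr, Erbb2 and Erbb3, the ligands Areg, Ereg, Hbegf, Tgfa, Btc and Epgn, and the receptor inhibitor Errfi1. All 10 had a row among the 23282 rows of the count tables, and 9 passed the filter on low counts, which Epgn did not. One group of cells had been transduced with an adenovirus encoding estrogen-related receptor γ (ERRγ, gene Esrrg), an orphan nuclear receptor known for its role in oxidative metabolism, and the control group with the same kind of vector encoding green fluorescent protein (GFP). There were 2 libraries for each virus. All cells came from C57BL/6J mice, were transduced at a multiplicity of infection of 100 for 36 h, and were kept in Waymouth's medium with 2.5% serum, trypsin inhibitor and 25 ng/ml recombinant human EGF. Ligand for the EGF receptor was thus supplied to every culture, and no culture without it was measured. Whether replicates 1 and 2 of a group were separate cultures or animals is not stated in the labels. The p-values cover the spread between libraries only. Within the pairs, chi-square per degree of freedom was 24.2 (ERRγ) and 15.2 (GFP), above counting error. Esrrg itself had 1453 counts in ERRγ replicate 1 and 12994 in ERRγ replicate 2. How much of this spread is technical was not tested.

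EGF receptors are tyrosine kinases at the cell surface that pair up when a ligand binds and then signal through the RAS-ERK and phosphoinositide 3-kinase pathways. Their ligands are made as membrane-anchored precursors and freed by proteases. In the exocrine pancreas, signalling through these receptors is known for driving acinar cells toward a duct-like state, in tissue injury as in culture.

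Total counts were 10480878 and 10645277 in the ERRγ libraries and 10105604 and 11012351 in the GFP libraries, called replicates 1 and 2 below in this order. Values are CPM, which set each count against the size of its library, with sizes scaled by the trimmed mean of M-values (TMM). Each read comes from the end of a transcript, so CPM here do not grow with transcript length and levels of different genes are compared on that scale. Esrrg had 1453 and 12994 counts in ERRγ cells and 86 and 107 in GFP cells, and ERRγ replicate 2 held 9.90 times the Esrrg CPM of ERRγ replicate 1. The cultures carried few acinar transcripts: 11 acinar markers summed to 72.4 and 68.9 CPM in ERRγ cells and 82.5 and 43.9 CPM in GFP cells, and the acinar factor Ptf1a had no count. A list of 10 ductal markers summed to 7707 and 9088 CPM in ERRγ cells and 11712 and 11385 CPM in GFP cells. Krt8 and Krt18, keratins of simple epithelia that acinar cells express too, made up 63.6% and 61.7% of this sum in ERRγ cells and 66.9% and 66.7% in GFP cells. The other 8 ductal markers, a split chosen after the values were seen, summed to 2801 and 3480 CPM in ERRγ cells and 3874 and 3787 CPM in GFP cells. Cells labelled as acinar thus held few acinar marker transcripts. Summed CPM of the remaining marker lists were 884 and 637 in ERRγ cells against 1087 and 665 in GFP cells for fibroblasts and stellate cells, 44.8 and 13.04 against 183 and 26.03 for islets, 6.78 and 13.9 against 9.003 and 9.87 for leukocytes, and 7.14 and 6.22 against 12.4 and 3.68 for endothelium. In bulk samples, fewer cells of a type and less RNA per cell cannot be told apart.

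Of the 9 members tested, Errfi1 rose and Egfr fell with ERRγ, and the other 7 did not pass the test (edgeR's quasi-likelihood test, Benjamini-Hochberg adjusted p under 0.05 over all 13070 genes tested). Across all genes tested 6.84% were called, 5.06% as higher and 1.78% as lower with ERRγ. At an unadjusted p under 0.05 there were 5 members, Egfr, Errfi1, Hbegf, Erbb2 and Ereg, against 23.1% of all genes tested. The CPM of the groups did not overlap for 7 of the 9, of which 2 were higher and 5 lower with ERRγ. The lower ones include Erbb3, which passed the filter only through its GFP counts, so the filter favoured that direction for it. Among all genes tested 54.0% did not overlap, 27.4% with ERRγ higher and 26.6% with ERRγ lower.

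**Figure D1:**
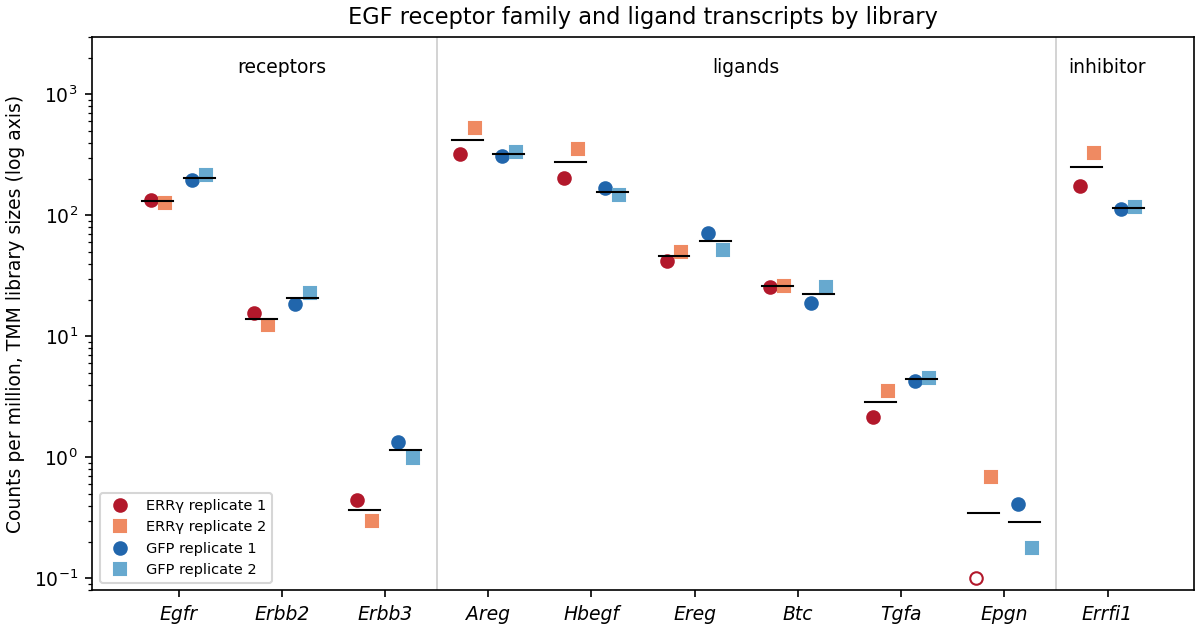
CPM of the 10 genes (log axis) in each library, with ERRγ libraries in red and orange left of GFP libraries in blue, and black lines at group means. The open circle for Epgn marks a library with no count. Errfi1 and Hbegf lie above, and Egfr, Erbb2, Erbb3, Ereg and Tgfa below, their GFP values in both ERRγ libraries.

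Upstream sequences are shown for Egfr and Errfi1, which passed the test in opposite directions, and for Areg, the most abundant ligand, because Areg and Errfi1 share a letter string. They are RefSeq sequences on GRCm38.p6, the assembly behind mm10, plus strand, 5′ to 3′, and each ends at the base before the annotated start: chr11:16751953-16752202 for Egfr, chr5:91139349-91139598 for Areg and chr4:150854820-150855069 for the second of 2 annotated starts of Errfi1. Capitals mark matches on either strand to the GC box GGGCGG and to the cAMP response element TGACGTCA.
Egfr: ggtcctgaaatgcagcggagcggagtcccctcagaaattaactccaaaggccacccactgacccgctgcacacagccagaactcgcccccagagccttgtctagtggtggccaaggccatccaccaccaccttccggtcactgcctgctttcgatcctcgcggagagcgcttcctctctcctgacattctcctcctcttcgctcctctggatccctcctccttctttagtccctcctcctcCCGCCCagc
Areg: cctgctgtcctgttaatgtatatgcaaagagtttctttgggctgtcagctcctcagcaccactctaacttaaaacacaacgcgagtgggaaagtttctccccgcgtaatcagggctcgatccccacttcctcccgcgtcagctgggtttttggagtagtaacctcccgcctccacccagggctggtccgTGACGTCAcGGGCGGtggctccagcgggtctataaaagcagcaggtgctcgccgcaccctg
Errfi1: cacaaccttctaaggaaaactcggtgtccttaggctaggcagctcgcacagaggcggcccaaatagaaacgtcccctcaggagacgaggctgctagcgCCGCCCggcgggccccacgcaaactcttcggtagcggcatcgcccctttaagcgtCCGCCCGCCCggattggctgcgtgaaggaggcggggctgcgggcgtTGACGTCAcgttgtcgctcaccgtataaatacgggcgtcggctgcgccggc
Areg and Errfi1 each hold TGACGTCA once, beginning 61 and 51 bases before the start shown. The window of the other annotated start of Errfi1 holds neither TGACGTCA nor the GC box. Windows of 300 bases, from 250 before to 50 after a start, were given for 7 of the 10 genes, 8 windows in all. TGACGTCA was in 2 of these 8 and in 1.79% of all 32851 windows in the RefSeq table. The GC box was in 4 of the 8 and in 35.7% of all windows. The ERR response element TCAAGGTCA, its core AAGGTCA, which lies within it, and the AP-1 site TGANTCA were in none of the 8, against 0.423%, 4.72% and 7.81% of all windows. A match is a description of letters, not of a site in use, and these windows leave out more distant sequence.

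Egfr, the receptor for the EGF in the medium, fell with ERRγ. It lies on chromosome 11 (16752203 to 16918158, plus strand, GRCm38) and overlaps the antisense gene Egfros, so that reads of both cannot be told apart. Egfr had 134 and 127 CPM in the ERRγ libraries, against 197 and 215 CPM in the GFP libraries. Every ERRγ value was below every GFP value, and neither pair of libraries was far apart. The means were 131 ± 5.17 CPM in ERRγ cells and 206 ± 12.9 CPM in GFP cells (SD, n = 2 each), a log2 fold change of −0.65 (SE 0.13, 95% interval −0.96 to −0.35, adjusted p = 0.0267, edgeR). That is 1.57-fold lower with ERRγ. The size held without any single library (−0.72 to −0.59), while the call ended without GFP replicate 1 (adjusted p = 0.185) and without GFP replicate 2 (0.227).

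Erbb2, which has no known ligand and serves as the partner of the other receptors, had 15.7 and 12.4 CPM in ERRγ libraries and 18.7 and 22.8 CPM in GFP libraries. Its groups did not overlap, but the log2 fold change of −0.56 did not pass (SE 0.23, 95% interval −1.09 to −0.03, adjusted p = 0.192). Without ERRγ replicate 1 it was −0.74, and without ERRγ replicate 2 it was −0.41. Erbb2 (chromosome 11, 98412470 to 98437716, plus strand) overlaps Mien1 on the opposite strand, a gene with 1105 and 1115 counts in ERRγ cells and 813 and 1140 in GFP cells. Since the use of strand in counting is not given, reads of Mien1 in the Erbb2 count cannot be told apart. Erbb3, a receptor for neuregulins with little kinase activity of its own, had 5 and 3 counts in ERRγ cells and 13 and 11 in GFP cells. Erbb3 (chromosome 10, 128567523 to 128589652, minus strand) passed the filter only through its GFP counts and is near the limit of depth, where 3 counts in a library equal 0.268 to 0.307 CPM. Its log2 fold change was −1.60 (SE 0.76, adjusted p = 0.256). The receptor Erbb4 was without a count throughout, and 3 counts, the limit that 0 allows, equal 0.268 to 0.307 CPM.

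The 3 receptor transcripts together summed to 151 and 140 CPM in ERRγ cells and 217 and 239 CPM in GFP cells, and Egfr made up most of each sum. The ductal marker list had Krt7, Krt8 and Muc1 lower and Cftr, the chloride channel gene of duct cells, higher among 10 genes tested. Krt8, a keratin of simple epithelia, had a mean of 2894 ± 240 CPM in ERRγ cells and 4574 ± 157 CPM in GFP cells (log2 fold change −0.66, adjusted p = 0.0394). Krt19 stood at a log2 fold change of −0.06 and Sox9 at −0.05, and neither passed (adjusted p = 0.898 and 0.911). Krt18 (−0.41) and Epcam (−0.38) were lower without overlap and did not pass either (adjusted p = 0.173 and 0.269, edgeR). Of the 10 fold changes 8 were negative, and 40% of the list was called, against 6.84% of all genes tested. Calls of all 4 ductal genes ended without GFP replicate 1 (adjusted p 0.203 to 0.312) and without GFP replicate 2 (0.157 to 0.286), and that of Cftr also with library totals (0.0569). The part of these markers in the Egfr result was not tested.

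**Figure D2:**
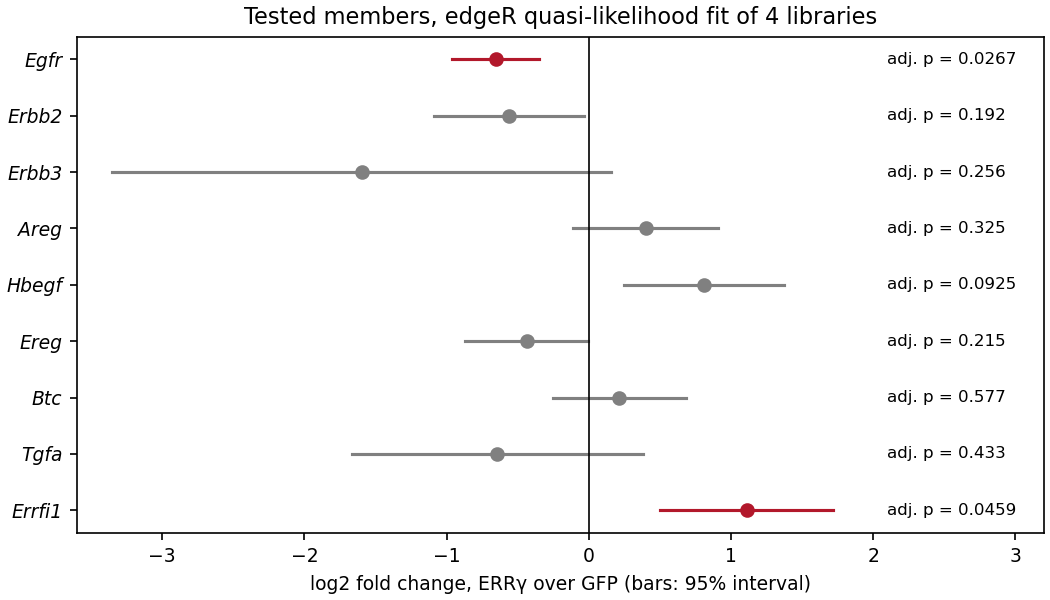
Log2 fold change (ERRγ over GFP) of the 9 tested genes with 95% intervals, and the adjusted p of edgeR's quasi-likelihood test at the right; red marks an adjusted p under 0.05. Egfr (−0.65) and Errfi1 (1.11) are the red points, and the interval of Erbb3 is the widest of the 9.

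Errfi1 rose with ERRγ. It encodes MIG6, an inhibitor that binds the kinase domain of the EGF receptor and that EGF signalling itself is known to induce. Errfi1 (chromosome 4, 150853919 to 150868892, plus strand) had 175 and 327 CPM in ERRγ libraries, against 114 and 119 CPM in GFP libraries. Both ERRγ values were above both GFP values, and ERRγ replicate 2 was far above ERRγ replicate 1. The means were 251 ± 107 CPM in ERRγ cells and 116 ± 3.32 CPM in GFP cells (SD, n = 2 each), with a log2 fold change of 1.11 (SE 0.26, 95% interval 0.50 to 1.71, adjusted p = 0.0459, edgeR). That is 2.16-fold higher with ERRγ, with the adjusted p close to the threshold. Without ERRγ replicate 2 the log2 fold change was 0.59 (1.504-fold), and without ERRγ replicate 1 it was 1.49 (2.81-fold). In both of these fits the GFP pairs are the sole source of the spread, pooled over genes. The lone ERRγ library is assumed to vary like them. Without ERRγ replicate 1 the SE was 0.152 for Areg, 0.155 for Hbegf and 0.156 for Errfi1. Their GFP pairs differed by 0.12, −0.20 and 0.06 in log2 CPM. The p-values of these fits therefore do not measure the spread of a single gene. The call ended without GFP replicate 1 (adjusted p = 0.321), without GFP replicate 2 (0.243) and with limma-voom (0.0537).

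Areg and Hbegf were the most abundant ligand transcripts in both groups. Amphiregulin, the product of Areg, is a ligand of the EGF receptor alone. Areg (chromosome 5, 91139599 to 91148432, plus strand) had 321 and 525 CPM in ERRγ cells and 307 and 333 CPM in GFP cells. ERRγ replicate 1 lay between the GFP libraries and ERRγ replicate 2 above both. The log2 fold change of 0.40 did not pass (SE 0.22, 95% interval −0.11 to 0.91, adjusted p = 0.325). It was 0.71 without ERRγ replicate 1 and 0.00029 without ERRγ replicate 2, so that the difference rested on ERRγ replicate 2. Hbegf, on chromosome 18, encodes heparin-binding EGF-like growth factor, which binds both the EGF receptor and ERBB4. Hbegf had 203 and 351 CPM in ERRγ cells, against 169 and 147 CPM in GFP cells. The groups did not overlap, and again ERRγ replicate 2 was the highest. The log2 fold change was 0.81 (SE 0.24, 95% interval 0.25 to 1.37) and did not pass (adjusted p = 0.0925). Hbegf did pass in DESeq2 (adjusted p = 0.00795) and with library totals (0.0443). With no filter on low counts Esrrg had an adjusted p of 3.96e-139, against 0.0109 with the filter (edgeR), although its ERRγ libraries differed 9.90-fold. In the fit with no filter Hbegf passed too (adjusted p = 2.59e-05, SE 0.16). Its log2 fold change was 1.15 without ERRγ replicate 1 and 0.36 without ERRγ replicate 2.

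The remaining ligands were lower in level and none passed. Ereg (chromosome 5, 91074622 to 91093646, plus strand), which encodes epiregulin, a ligand of the EGF receptor and ERBB4, had 41.7 and 49.98 CPM in ERRγ cells and 71.8 and 52.3 CPM in GFP cells. The ERRγ values lay below the GFP values by a narrow margin (log2 fold change −0.44, SE 0.19, adjusted p = 0.215). Without ERRγ replicate 2 the log2 fold change of Ereg was −0.58, and without GFP replicate 1 it was −0.20. Btc (chromosome 5, 91357261 to 91402994, minus strand), which encodes betacellulin, another ligand of both receptors, had 25.6 and 26.3 CPM in ERRγ cells and 18.9 and 25.7 CPM in GFP cells. The groups overlapped (log2 fold change 0.22, SE 0.20, 95% interval −0.25 to 0.68, adjusted p = 0.577), and the log2 fold change was 0.01 without GFP replicate 1 and 0.45 without GFP replicate 2. Tgfa (chromosome 6, 86195223 to 86275719, plus strand), which encodes transforming growth factor α, the ligand best known for driving duct-like change of acinar cells, had 24 and 36 counts in ERRγ cells and 42 and 51 in GFP cells. These are 2.14 and 3.56 CPM in ERRγ cells and 4.30 and 4.58 CPM in GFP cells, with no overlap (log2 fold change −0.64, SE 0.44, adjusted p = 0.433). Epgn (chromosome 5, 91027464 to 91035215, plus strand), which encodes epigen, had 0 and 7 counts in ERRγ cells and 4 and 2 in GFP cells and was too low to test.

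Areg, Ereg, Epgn and Btc are neighbours. They are the 4 protein-coding genes within 375.5 kb of chromosome 5 (91027464 to 91402994, GENCODE M21), in the order Epgn, Ereg, Areg, Btc. Areg and Ereg lie 45.95 kb apart. Within this stretch the fold changes differed in sign, positive for Areg and Btc and negative for Ereg, and none of these 3 passed the test. The count of Areg over that of Ereg, a ratio that needs no library scaling, was 7.70 and 10.5 in ERRγ cells and 4.28 and 6.37 in GFP cells.

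The order of levels differed between the groups in its upper places. With ERRγ the order was Areg, Hbegf, Errfi1, Egfr, Ereg, Btc, Erbb2, Tgfa, Erbb3 and Epgn. There Areg and Hbegf overlapped over the libraries, as did Hbegf and Errfi1, and Erbb3 and Epgn. With GFP, Egfr stood second, behind Areg and ahead of Hbegf and Errfi1, and of neighbours in the order only Btc and Erbb2 overlapped. Counts of Errfi1 over those of Egfr were 1.30 and 2.57 in ERRγ cells, against 0.578 and 0.551 in GFP cells. Counts of Areg over those of Egfr were 2.39 and 4.13 in ERRγ cells and 1.56 and 1.55 in GFP cells. Counts of Hbegf over those of Egfr were 1.51 and 2.76 in ERRγ cells and 0.858 and 0.682 in GFP cells. In all 3 ratios both ERRγ libraries were above both GFP libraries, and ERRγ replicate 2 was the highest. The 3 ratios share Egfr as the denominator, so they are not separate results. For Errfi1 and Hbegf the separation follows from the CPM given above, while the CPM of Areg itself overlapped between the groups.

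The 6 ligand transcripts summed to 593 and 956 CPM in ERRγ cells and 572 and 563 CPM in GFP cells. Areg took 54.1% and 54.9% of this sum with ERRγ and 53.8% and 59.2% with GFP. Hbegf took 34.2% and 36.7% with ERRγ, against 29.5% and 26.1% with GFP. Ereg took 7.03% and 5.23% with ERRγ and 12.6% and 9.30% with GFP. The share of Areg overlapped between the groups, that of Hbegf was higher and that of Ereg lower in both ERRγ libraries.

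**Figure D3:**
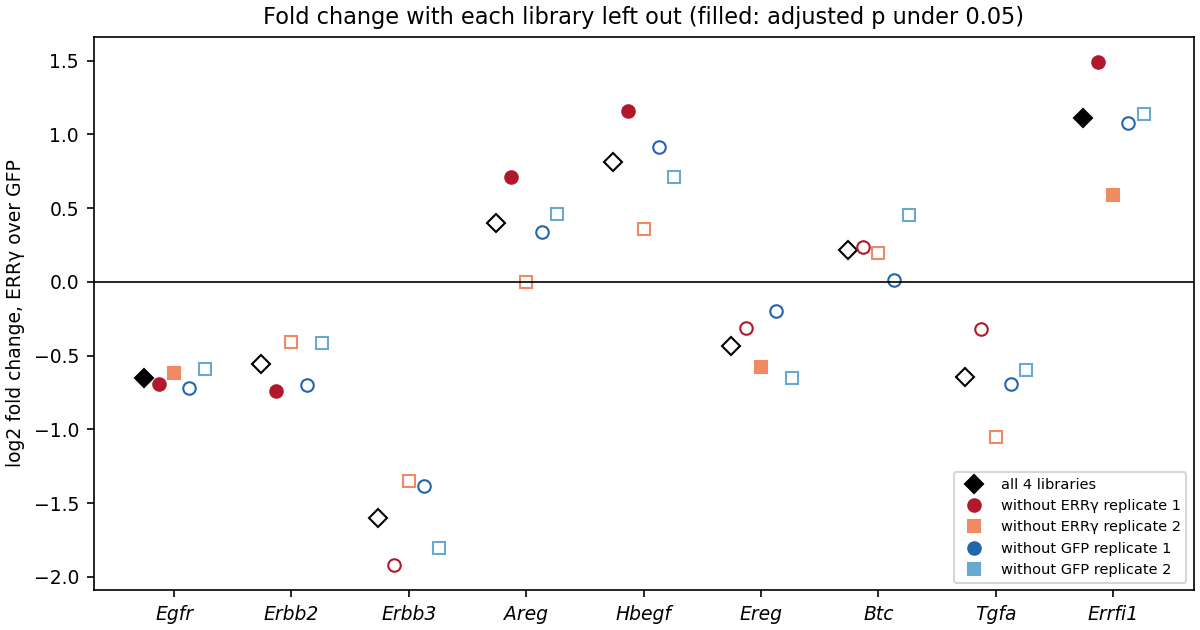
Log2 fold change (ERRγ over GFP) of the 9 tested genes in the fit of all 4 libraries (black diamonds) and in fits that each left out 1 library (coloured), filled where the adjusted p was under 0.05. In fits without an ERRγ library the spread is pooled over genes, so filled marks there do not measure the spread of a single gene. Egfr stays between −0.72 and −0.59, whereas Areg, Hbegf and Errfi1 are lowest without ERRγ replicate 2 and highest without ERRγ replicate 1.

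All 5 tested ligands were higher in ERRγ replicate 2 than in ERRγ replicate 1, with a median log2 difference in CPM of 0.71, and the 3 receptors were lower, at −0.08 for Egfr, −0.34 for Erbb2 and −0.59 for Erbb3, the last from 5 and 3 counts. Among all genes tested 49.4% were higher in ERRγ replicate 2. The log2 difference was 0.90 for Errfi1, 0.79 for Hbegf, 0.73 for Tgfa, 0.71 for Areg, 0.26 for Ereg and 0.04 for Btc. Btc had 287 and 266 counts in these libraries, so the sign of its difference rests on the TMM scaling. Between the GFP libraries the 5 ligands had a median log2 difference of 0.09, and Ereg (−0.46) and Btc (0.44) differed more there than between the ERRγ libraries. Of 18 tested genes of a list of growth factor response genes, 16 were higher in ERRγ replicate 2, with a median log2 difference of 0.38. Egr1, an early zinc-finger factor, had 514 and 4528 counts in ERRγ cells and 919 and 907 in GFP cells. Fos, a subunit of AP-1, had 1199 and 3111 counts in ERRγ cells and 693 and 1055 in GFP cells. These are single libraries, so no test was possible, and the amount of Esrrg and other differences between these 2 libraries cannot be told apart.

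**Figure D4:**
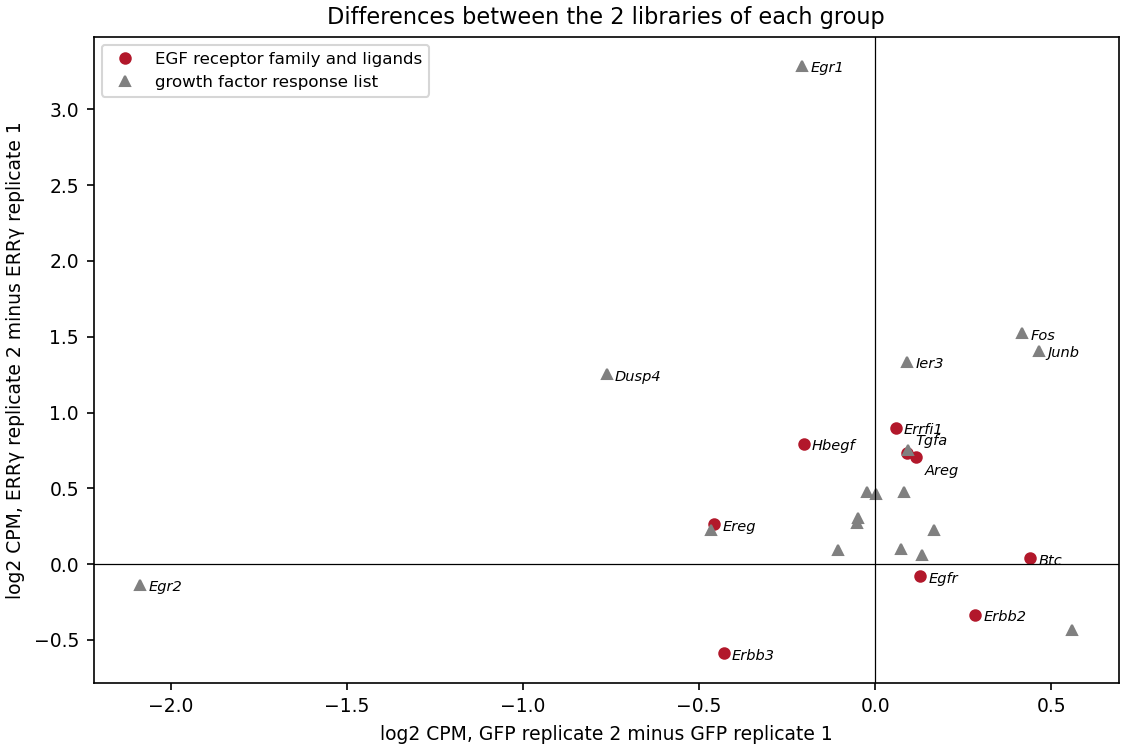
Log2 CPM of replicate 2 minus replicate 1 in ERRγ cells (vertical) and in GFP cells (horizontal) for the 9 tested genes (red circles) and the growth factor response list (grey triangles). Errfi1, Hbegf, Tgfa and Areg lie between 0.71 and 0.90 on the vertical axis and between −0.20 and 0.12 on the horizontal axis, and Egr1 lies highest at 3.29.

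Genes around the receptors were read from lists of pathway genes, beside the 5.06% of all genes that rose, the 1.78% that fell and the median log2 fold change of −0.01 of all genes tested. Of the neuregulins, ligands of ERBB3 and ERBB4, none of the 3 tested passed. Nrg1 had 91 and 103 counts in ERRγ cells and 44 and 54 in GFP cells, without overlap (log2 fold change 0.96, SE 0.32, adjusted p = 0.116). Nrg2 had 10 and 5 counts in ERRγ cells and 0 and 15 in GFP cells, and Nrg4 had 16 and 2 against 25 and 9. Nrg3 had a single count, in a GFP library. Egf itself had 5 and 6 counts in ERRγ cells and 0 and 2 in GFP cells, too low to test.

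Of 7 genes of ligand shedding, all 7 tested, Adam12 fell and none rose (median log2 fold change −0.32). The 7 fold changes were below 0 under each scaling tried, and 5 or 6 of them were when a library was left out. Adam12, a metalloproteinase that can release ligands such as HB-EGF, had 21.2 and 22.1 CPM in ERRγ cells, against 38.9 and 34.6 CPM in GFP cells (log2 fold change −0.76, SE 0.16, adjusted p = 0.0328). Its call ended without GFP replicate 1 (adjusted p = 0.291), without GFP replicate 2 (0.151) and with library totals (0.0561). Adam17, the main protease of amphiregulin release, stood at 96.4 ± 8.72 CPM in ERRγ cells and 98.6 ± 8.80 CPM in GFP cells (log2 fold change −0.03, SE 0.14, adjusted p = 0.92). Adam10 was at −0.38 and did not pass (SE 0.16, adjusted p = 0.1998).

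Of 19 genes of receptor turnover and restraint, all tested, Lrig3 rose and Cbl and Ptprj fell (median −0.19). Lrig3, a membrane protein of the LRIG family whose member LRIG1 restrains EGF receptors, had 23.2 and 21.1 CPM in ERRγ cells, against 5.42 and 5.30 CPM in GFP cells. Its groups lay far apart relative to both pairs (log2 fold change 2.05, SE 0.24, adjusted p = 0.00348, edgeR), and the call ended without GFP replicate 1 (adjusted p = 0.0587). Cbl, the ubiquitin ligase that marks activated EGF receptors for degradation, averaged 34.1 ± 0.0635 CPM in ERRγ cells and 55.2 ± 7.33 CPM in GFP cells (log2 fold change −0.69, adjusted p = 0.0357, edgeR). Ptprj, a receptor phosphatase, averaged 25.1 ± 0.281 CPM in ERRγ cells and 41.0 ± 3.31 CPM in GFP cells (log2 fold change −0.71, adjusted p = 0.0348, edgeR). Calls for Cbl and Ptprj ended without GFP replicate 1 (adjusted p = 0.321 and 0.197), without GFP replicate 2 (0.127 and 0.256) and with library totals (0.0578 and 0.0697). Lrig1 stood at −0.19 and Lrig2 at −0.33, and neither passed (adjusted p = 0.617 and 0.542).

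Of 18 genes of receptor signalling, 16 were tested and none passed (median −0.15). The lowest adjusted p in this list, 0.0884, belonged to Eps8, an adaptor between receptors and actin, with a log2 fold change of 0.76 (SE 0.22), and to Pik3ca, a catalytic subunit of phosphoinositide 3-kinase, with −0.53 (SE 0.15).

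Of 18 tested growth factor response genes Spry1 rose and none fell (median 0.31). Spry1, an inhibitor of receptor tyrosine kinase signalling to ERK, had 16.2 and 20.1 CPM in ERRγ cells, against 8.08 and 7.81 CPM in GFP cells (log2 fold change 1.19, SE 0.25, adjusted p = 0.0291). Its call ended without GFP replicate 1 (adjusted p = 0.209) and without GFP replicate 2 (0.193). Adam12, Cbl, Ptprj and Spry1 overlap other annotated genes, whose reads may be part of their counts. Beside Egfr and Erbb2, the members Erbb3, Ereg, Tgfa and Errfi1 also overlap other annotated genes. The gene overlapping Errfi1, 1700045H11Rik on the opposite strand, had 0 and 2 counts in ERRγ cells and 0 and 1 in GFP cells. Dusp6, a phosphatase of ERK, averaged 100.4 ± 3.05 CPM in ERRγ cells and 73.1 ± 4.73 CPM in GFP cells and did not pass (log2 fold change 0.46, SE 0.13, adjusted p = 0.0869). Spry2 was at −0.15 and Etv4 at −0.44, and neither passed (adjusted p = 0.587 and 0.132). Without ERRγ replicate 1 the median log2 fold change of these genes was 0.50, against −0.02 for all genes tested. Without ERRγ replicate 2 it was −0.20, against −0.01 for all genes tested.

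**Figure D5:**
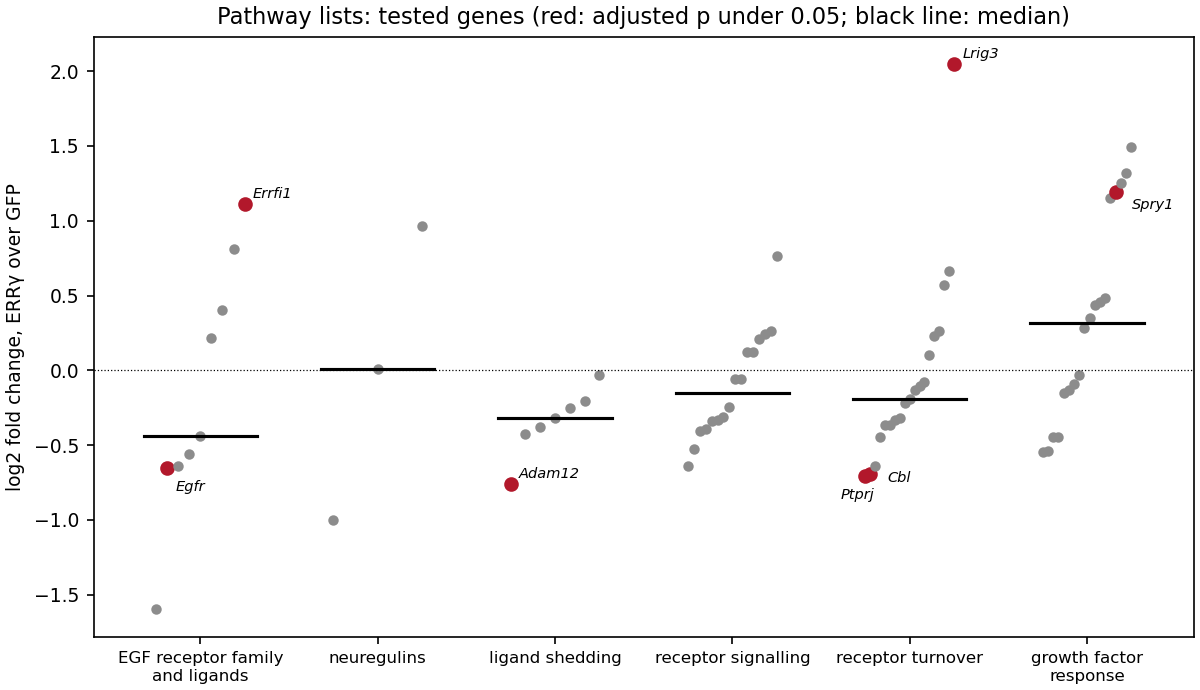
Log2 fold change (ERRγ over GFP) of the tested genes in the family and in 5 pathway lists, with black lines at the medians and red points where the adjusted p was under 0.05. Lrig3 lies highest at 2.05, and the 7 ligand shedding genes lie below 0 in this fit of all libraries.

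Egfr's pattern over the 4 libraries was most like those of S100a16, Ahnak and Hexdc, out of 8457 other genes with a mean of at least 10 CPM. Their root mean square differences from Egfr, in log2(CPM + 0.5) centred on each gene's mean, were 0.015, 0.019 and 0.024. S100a16, which encodes a calcium-binding protein, had 99.5 and 96.3 CPM in ERRγ cells and 148 and 163 CPM in GFP cells. Ahnak, which encodes a giant scaffold protein, had 395 and 368 CPM in ERRγ cells and 584 and 617 CPM in GFP cells. Hexdc, which encodes a hexosaminidase, had 15.2 and 14.9 CPM in ERRγ cells and 23.02 and 24.6 CPM in GFP cells.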

How the data were processed

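Per the labels' protocols, a Lexogen QuantSeq kit, which reads transcript ends, was used on 500 ng of total RNA per library. The deposited tables hold whole-number counts per gene symbol without normalization; the submitters' processing notes name Bowtie2, edgeR and mm10 without versions, and how reads were assigned to genes, and whether by strand, is not given in the sources used here. Counts of overlapping genes may therefore mix. The test was run in edgeR 4.0.16 under R 4.3.3 (filterByExpr with the group, minimum count 10; TMM; group alone; glmQLFit and glmQLFTest, two-sided), which kept 13070 of 17888 rows with a count. The SE is the log2 fold change divided by the square root of F. Alternatives were DESeq2 1.42.0, limma-voom (limma 3.58.1), other scalings and filters, a replicate block and each library left out. On simulated counts, with changes set in genes with a mean of at least 5 CPM, the test recovered 68.2% of 2-fold and 98.6% of 4-fold changes. Each simulated gene had the spread typical of its level, the same in both groups, so these rates do not cover genes that vary more. Changes smaller than 2-fold were not simulated. Members and lists were chosen with earlier results of these data known. Named genes were all members, pathway genes past the threshold and all listed neuregulins, Egf and Erbb4; Adam10, Adam17, Lrig1, Lrig2, Dusp6, Spry2, Etv4, Egr1, Fos, Krt8, Krt19, Sox9, Eps8, Pik3ca and the other markers named were chosen after their values were seen. Positions are from GENCODE M21 (GRCm38). Figures were drawn with matplotlib 3.10.9. PCR reads carry no molecular identifiers that the labels mention, so floors cover counting error only.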

Additional observations from a re-analysis of the deposited data

How the results depend on the processing

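Among the members, 1 higher and 1 lower call stood in the fit of all libraries. The number higher was 2 with library totals, with no filter and with DESeq2, where Hbegf joined, and 0 with limma-voom. The number lower was 1 in each of these. Of all 13070 genes tested, library totals gave 690 higher and 169 lower, DESeq2 813 and 349, and limma-voom 630 and 241. The fit with no filter tested 17888 genes. Leaving out a library gave 0 to 3 higher and 0 to 2 lower. Over all genes, 661 rose and 233 fell; with no filter these were 1271 and 738, and with a library left out 92 to 1597 rose and 7 to 1098 fell. No member's fold change changed sign under any alternative run, although Areg came to 0.00029 without ERRγ replicate 2. Of 106 member values under alternatives, 94 kept their side of the threshold, 7 crossed into a call and 5 lost one. Whether library numbers 1 and 2 pair the samples is not given. The correlation of deviations was 0.013 over genes, which cannot decide this, since pairing could affect some genes only. Of 6 islet markers tested, 1 was higher in ERRγ replicate 2 and 0 in GFP replicate 2. Of 10 ductal markers these were 8 and 5, of 8 acinar markers 3 and 1, and of 9 fibroblast and stellate markers 3 and 2. Of 4 endothelial markers they were 2 and 0, and of 2 leukocyte markers 2 and 1. Among all 13070 genes tested 6452 were higher in ERRγ replicate 2 and 6606 in GFP replicate 2. With the replicate block 776 genes rose and 315 fell, with 1 member higher and 1 lower. With 2 libraries a group and a single pair left when a library is dropped, a lost or gained call shows little about size. Of 19 growth factor response genes, 5 rose and 1 fell with no filter, where 1271 of 17888 genes rose and 738 fell. With the replicate block 2 of 18 rose. Their median log2 fold change was 0.50 without ERRγ replicate 1 and −0.20 without ERRγ replicate 2, so its sign depended on the library left out. It was 0.25 without GFP replicate 1 and 0.33 without GFP replicate 2. Erbb3, Epgn and Tgfa are limited by depth. The cause of these shifts was not tested.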
